A study of Mus musculus with 72 samples.

Results

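The Rorb Nr2f2 Wnt4 neurons examined here were 65 cells, or 2.77% of the Pet1-lineage dorsal raphe neurons profiled by 10X droplet sequencing. Pet1 is the older name of Fev, the ETS-domain transcription factor that marks serotonin neurons from their birth, and the dorsal raphe (DR) is the midbrain nucleus that sends serotonin fibres to most of the forebrain. The 65 cells were the ones with the highest mean z-scored log expression of 6 genes (Rorb, Nr2f2, Cmbl, Wnt4, Slc1a2 and C1ql1) among cells without a UMI of Met. Because measured values chose the cells, these 6 genes are given only as a description, and every other level in the 10X cells is a description too, with no test.

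Rorb encodes a retinoid-related orphan nuclear receptor, and Nr2f2 encodes COUP-TFII, a nuclear receptor that acts largely as a repressor. Wnt4 is a secreted ligand, Slc1a2 encodes the glutamate transporter GLT-1 that is best known from astrocytes, and C1ql1 is a secreted complement C1q-like protein that organizes synapses. Serotonin neurons of the DR share a core program of synthesis, transport and breakdown of serotonin, and differ by position in the nucleus in the other transmitters, peptides and receptors that they carry.

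The 10X table holds UMI counts (unique transcript molecules) of 17231 genes in cells from 2 runs. One run was of Pet1::Flpe+/- mice homozygous for hM3Dq, at a mean of postnatal day 65.5. In the other run the mice were heterozygous for En1::cre, Pet1::Flpe and RC::FrePe, at a mean of postnatal day 59. Cells were sorted for EGFP from the full DR, so in both runs the label rests on past Pet1-Flpe activity, and in the second also on an En1 history. A second table holds full-length read counts of 24256 genes in 70 manually sorted cells, in 8 groups named by Cre driver and DR subdomain, each with Pet1::Flpe and RC::FrePe, from mice of postnatal day 62 to 119. The columns taken as the Crh-cre cells are named Crf, an older name of Crh, and were matched by region and number. The 10X table carries no map from cells to runs or animals and was treated as 1 sample. Its barcodes end in 1 (869 cells) or 2 (1481 cells), and these 2 barcode sets, which shared 0 barcodes, were used for values within a set. Of the 65 cells, 25 were in set 1 (38.5%, exact 95% interval 26.7 to 51.4%), beside 37.0% of all cells.

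The 65 cells had scores of 1.73 to 4.95, with a median of 2.39. The 3 lowest members scored 1.73, 1.76 and 1.76 and the 3 cells just outside scored 1.73, 1.73 and 1.72, so the limit does not fall in a gap. A further 3 cells scored above the lowest member and were left out for a Met UMI. All 6 genes had a UMI in 17 members, 5 genes in 34, 4 in 11 and 3 in 3, whereas 673 of the other cells had none of the 6. Rorb stood at 217 CPM (summed UMIs of a gene scaled to a total of 1000000) in the members and 12.4 CPM in the other cells, Nr2f2 at 127 and 16.7, Cmbl at 92.6 and 12.1, Wnt4 at 100.1 and 8.98, Slc1a2 at 69.5 and 13.9, and C1ql1 at 68.2 and 1.36. These are the values that chose the cells.

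Depth was close to that of the other cells. The members' median was 63454 UMIs and 7863 genes per cell, beside 59612 UMIs and 7724 genes in the other cells, and the median mitochondrial share was 7.39% and 6.38%. The doublet caller Scrublet marked 14 of all cells and none of the 65. Fev and Tph2, the rate-limiting enzyme of serotonin synthesis in the brain, had a UMI in all 65 cells. This is a weak check of the label, since the authors filtered cells on Fev and 100% and 99.5% of the other cells had a UMI of these genes. Single members were as low as 52.8 CPM of Tph2. Astrocyte markers summed to 38.8 CPM in the members and 45.6 CPM in the other cells, over 17 listed genes of which 7 were at 0 in the members. The markers of microglia and blood summed to 1.54 CPM, and those of vessel and ependymal cells to 2.32 CPM, beside 3.37 and 6.14 CPM in the other cells. The listed markers of other neuron types were higher in the members, at 7.46 CPM (5.00 to 10.7) against 2.82 CPM, with 5 of 9 listed genes at 0. Their sum was nearly all Hdc, histidine decarboxylase (3.60 and 0.684 CPM), and Pvalb, parvalbumin (3.34 and 0.494 CPM), each with a UMI in 11 members, and their part in the results was not tested. Pooled 10X cells give no replicate error, and all intervals below are exact 95% Poisson intervals on summed UMIs that cover counting error only.

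The members were not of one kind. In 9 of the 65 cells C1ql1 was at 175 CPM or more, while the highest of the other 56 was at 55.9 CPM. A limit of 100 CPM, set after the values were seen, separates them. All 9 were in barcode set 2, whose run is not known, against 31 of the other 56, and their depth was a median of 53436 UMIs (25619 to 69459). Only 2 of the other cells reached 100 CPM of C1ql1, both also in set 2. With the 6 rule genes left out of the components, each of the 9 had 7 or 8 of the other members of this small set among its 20 nearest cells, and just 1 of the 56. Among the cells outside the 9, 2 cells that are no members had all 9 of them among their 20 nearest cells, and 1 of the 56 had 7 of them.

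Of the 13 genes listed for serotonin synthesis, transport and breakdown, 4 were at least 2-fold lower in the 9 cells than in the other 56 and 0 higher, beside 6.81% lower and 7.89% higher of 9817 genes with a mean of at least 5 CPM over both. The 4 were Slc6a4, Maob, Gch1 and Slc22a3. The 9 cells were singled out after values of these data were seen, so the counts are a description. The counts also mix cell kind with barcode set, since the 9 are all of set 2 and the 56 of both sets. Slc6a4, the serotonin transporter, was at 0 to 469 CPM in the 9 cells (median 71.6) and at 231 to 3879.7 CPM in the 56 (median 2073), so the ranges met only at the lowest of the 56. Summed, Slc6a4 was at 134 CPM (102 to 173) in the 9, at 2112 CPM in the 56 and at 2237 CPM in the cells outside the 65. Maob, a mitochondrial monoamine oxidase, was at 49.2 CPM in the 9 and 500.2 CPM in the 56. Gch1, which makes the tetrahydrobiopterin cofactor of Tph2, was at 101 and 503 CPM, and Slc22a3, a low-affinity monoamine transporter, at 29.1 and 90.7 CPM. Maoa, the other monoamine oxidase, was at 96.2 and 111 CPM and Slc29a4 at 38.0 and 36.0 CPM. Tph2 itself was at 1729.9 and 3444 CPM, with 52.8 to 3139 CPM in single cells of the 9, whereas Slc18a2, the vesicular monoamine transporter, was at 2578 and 2244 CPM. Slc17a8, which encodes the vesicular glutamate transporter VGLUT3, was at 542 CPM in the 9 and 218 CPM in the 56. The 9 cells thus had Slc18a2 near the level of the 56, more Slc17a8 and little Slc6a4.

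The genes furthest above the 56 in the 9 cells were taken from genes with a mean of at least 20 CPM over both sets and a UMI in at least 7 of the 9, and those furthest below from genes with a UMI in at least 40 of the 56. The comparison was not made within barcode set 2, so it also takes in differences between the barcode sets. Gm8730, a gene far below, was at 8.95 CPM in the 9 and 127 CPM in the 56. In the other cells it was at 15.0 CPM in barcode set 2 and 265 CPM in barcode set 1. Tacr3, the neurokinin B receptor, was at 80.6 CPM (56.4 to 112) with a UMI in all 9 cells, and at 0.291 CPM in the 56 with a UMI in 1. Col11a1, a fibrillar collagen chain, and Sema3e, a secreted semaphorin, were at 107 and 87.3 CPM and had no UMI in the 56. Calb2, which encodes the calcium-binding protein calretinin, was at 797 and 32.3 CPM. The POU-domain transcription factors Pou3f1 and Pou3f2 were at 139 and 73.8 CPM in the 9 and at 5.81 and 1.74 CPM in the 56. Below the 56 lay Gucy1a3, a subunit of the nitric oxide receptor guanylyl cyclase (2.24 and 66.0 CPM), Cpne4, a copine (6.71 and 111 CPM), Fgf13, an intracellular fibroblast growth factor homologue (24.6 and 238 CPM), Cited1, a transcriptional coactivator (55.9 and 427 CPM), and Sema5a, a transmembrane semaphorin with no UMI in the 9 and 54.4 CPM in the 56. Some of these values were also found in the 93 cells with at least 3 Met UMIs, a kind the rule barred. They had 47.8 CPM of Tacr3, 691 of Slc6a4, 101 of Gch1, 1749 of Tph2 and 0.457 of Sema5a, but 4.34 of Col11a1, 1.37 of Sema3e, 30.6 of Calb2 and 422 of Maob. Of the rule genes the 9 cells shared Rorb (107 CPM) and Nr2f2 (192 CPM) with the 56 (231 and 118 CPM). Wnt4 they did not share, at 4.48 CPM with a UMI in 2 of the 9, beside 112 CPM in the 56 and 8.98 CPM in the other cells, so the name Rorb Nr2f2 Wnt4 describes the 56 and not the 9. Cmbl was at 44.8 CPM in the 9 and 98.8 CPM in the 56. Because of these cells the main counts below are given for the 65 and for the 56.

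**Figure D1:**
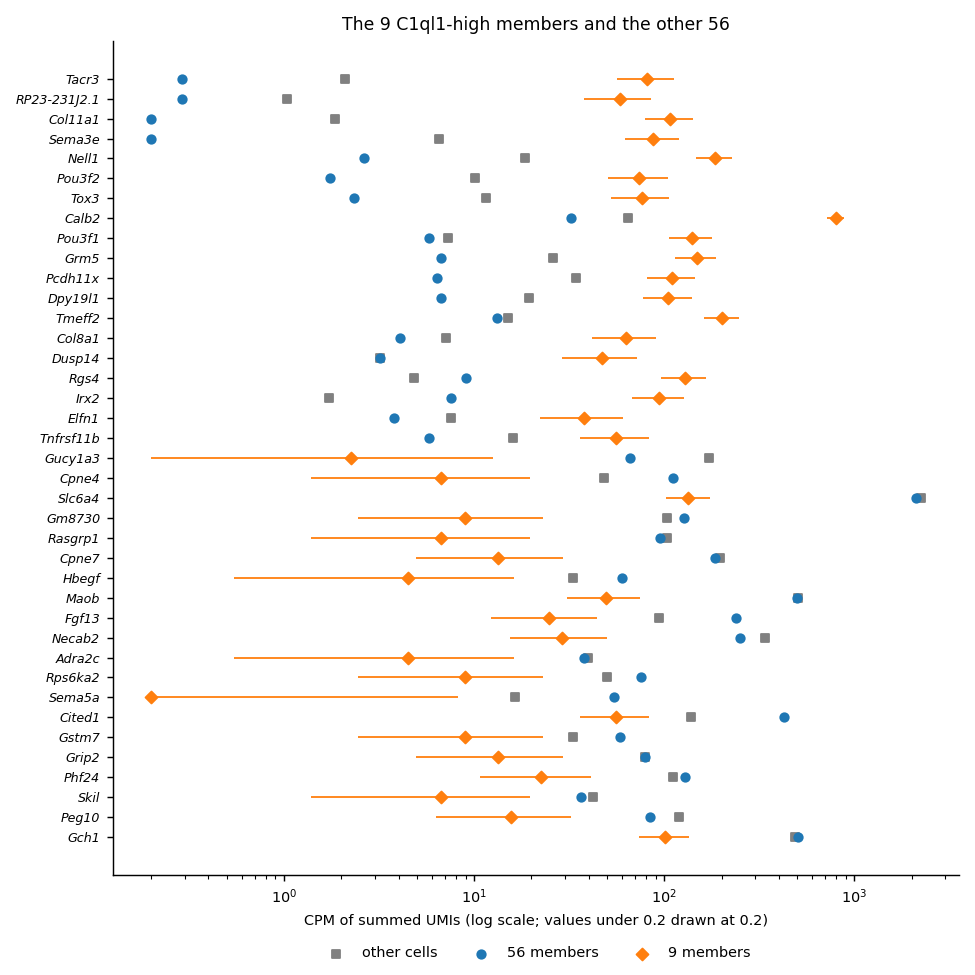
CPM of summed UMIs (horizontal log axis) for genes among the 20 furthest above and the 20 furthest below in the 9 members with at least 100 CPM of C1ql1 (diamonds, with exact Poisson 95% intervals), in the other 56 members (circles) and in the other cells (squares). Tacr3 stands at 80.6 CPM in the 9 against 0.291 CPM in the 56, and Slc6a4 at 134 against 2112 CPM, the latter beside 2237 CPM in the other cells. The 9 are all of barcode set 2 and the 56 of both sets, and Gm8730 differs between the sets in the other cells too.

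Over all genes, 9915 were considered, those with a mean of at least 5 CPM over the members and the other cells and outside the rule. Of these 124 (1.25%) were at least 2-fold higher in the 65 cells and 216 (2.18%) at least 2-fold lower. For the 56 cells it was 112 (1.13%) and 259 (2.62%) of 9897 genes. Of the 124 higher genes 100 were also higher in the 56, and of the 216 lower genes 203 were also lower. The lower genes outnumbered the higher ones in both versions, but with no filter on low values 3236 genes were higher and 838 lower. The counts of each functional list below stand beside the number that these 2 shares of all genes would give for a list of its size.

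The 13 genes listed for serotonin synthesis, transport and breakdown summed to 11261 CPM in the members and 11638 CPM in the other cells. Of these 0 were at least 2-fold higher and 0 at least 2-fold lower, in the 65 as in the 56, where the shares of all considered genes (1.25% and 2.18%) would give 0.16 and 0.28 genes, so the count alone says little. Tph2 stood at 3247 CPM in the members and 2828 CPM in the other cells, Slc18a2 at 2282 and 2356 CPM, and Ddc, the decarboxylase that makes serotonin, at 1013 and 1101 CPM. The highest ratio in the list was that of Slc29a4, a low-affinity monoamine transporter, at 1.51 (1.27 to 1.79). Across the transcription factors of serotonergic identity Fev was at 221 CPM and 339 CPM, which is 1.53-fold lower, and En1, a homeodomain factor of the midbrain-hindbrain border, at 242 and 349 CPM, while Gata3 and Lmx1b were at 1.10 and 0.851 times the other cells.

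Genes outside the rule were ranked if at least 40% of the members had a UMI and the ratio was at least 1.5 in each barcode set. Highest of these relative to the other cells was Nkx2-2, the homeodomain transcription factor that patterns the ventral neural tube and specifies serotonin progenitors. Nkx2-2 was at 12.3 CPM (9.10 to 16.4) in the members and 0.486 CPM in the other cells, a ratio of 25.4 (17.1 to 37.5), and at 11.3 CPM in the 56. It had a UMI in 26 of the 65 cells (40.0%) and in 54 of the others (2.36%), and the ratio was 22.2 in barcode set 1 and 27.9 in set 2. Its mRNA was low in single cells, and the median member had no UMI of it. On GRCm38, the genome of the mm10 build, the protein-coding gene Nkx2-2 lies at chr2:147176485-147195434.

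The genes after it among the 20 with the highest ratios, taken from genes with a UMI in at least 40% of the members and at least 1.5-fold higher in each barcode set, fell into a few roles. Among signalling peptides and their receptors, Gal, the neuropeptide galanin, was at 38.3 and 10.5 CPM, 3.64-fold higher (3.06 to 4.32). It was at 43.3 CPM in the 56 and had no UMI in the 9. Ghrh, growth hormone-releasing hormone, was at 21.4 and 6.90 CPM. Ramp1, the accessory protein that makes the calcitonin receptor-like receptor a CGRP receptor, was at 23.2 and 6.05 CPM (3.83-fold), and its relative Ramp3 at 25.0 and 8.22 CPM (3.04-fold). Both lay lower in the 9 cells, at 2.24 and 8.95 CPM. Gpr35, a G protein-coupled receptor, was at 13.6 and 4.46 CPM.

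Sln, sarcolipin, is a small inhibitor of the endoplasmic reticulum calcium pump. It was at 78.5 CPM (69.9 to 87.8) in the members and 13.5 CPM in the other cells, 5.83-fold higher, but unevenly: 35 members had a UMI, the median cell was at 16.4 CPM and the highest at 563 CPM. In the 9 cells a UMI was found in 1. Rab3b, a vesicle-bound small GTPase, was at 34.5 and 6.78 CPM (5.09-fold), and in the members it ran from 0 to 138 CPM with a median of 20.6. Chrna4, the alpha4 subunit of nicotinic acetylcholine receptors, was at 12.1 and 2.20 CPM (5.49-fold, 3.94 to 7.49). Rgs4, a G protein signalling regulator, rested on the 9 cells: it was 4.71-fold higher in the 65, at 128 CPM in the 9 and at 9.01 CPM in the 56, a ratio of 1.87 that is under 2-fold.

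Pcdh19 and Pvrl1, both of the cell surface, were detected in most members. Pcdh19, a delta-2 protocadherin of the X chromosome (chrX:133582860-133689044), was at 148 CPM (136 to 161) in the members and 44.4 CPM in the other cells, 3.33-fold higher, with a UMI in 63 of 65 cells and a median cell of 143 CPM. It was at 150.0 CPM in the 56 and 134 CPM in the 9, so both kinds of member had it. Pvrl1, now Nectin1, a nectin of cell junctions, was at 43.0 and 12.6 CPM with a UMI in 59 members and was higher in the 9 (101 CPM) than in the 56 (35.5 CPM). Adamts2, a procollagen peptidase, was at 13.6 and 1.94 CPM (7.01-fold), and Lrfn2, a synaptic adhesion protein that binds PSD-95, at 12.9 and 3.91 CPM, with a UMI in 31 and 35 members. The 20 also included Krt17 (5.18-fold), the locus Gm10605 (4.94), Lima1 (3.81), Mn1 (3.65), Cbfa2t3 (3.45) and Hunk (3.38), which include a keratin, an actin-binding protein, a pair of transcriptional cofactors and a kinase.

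**Figure D2:**
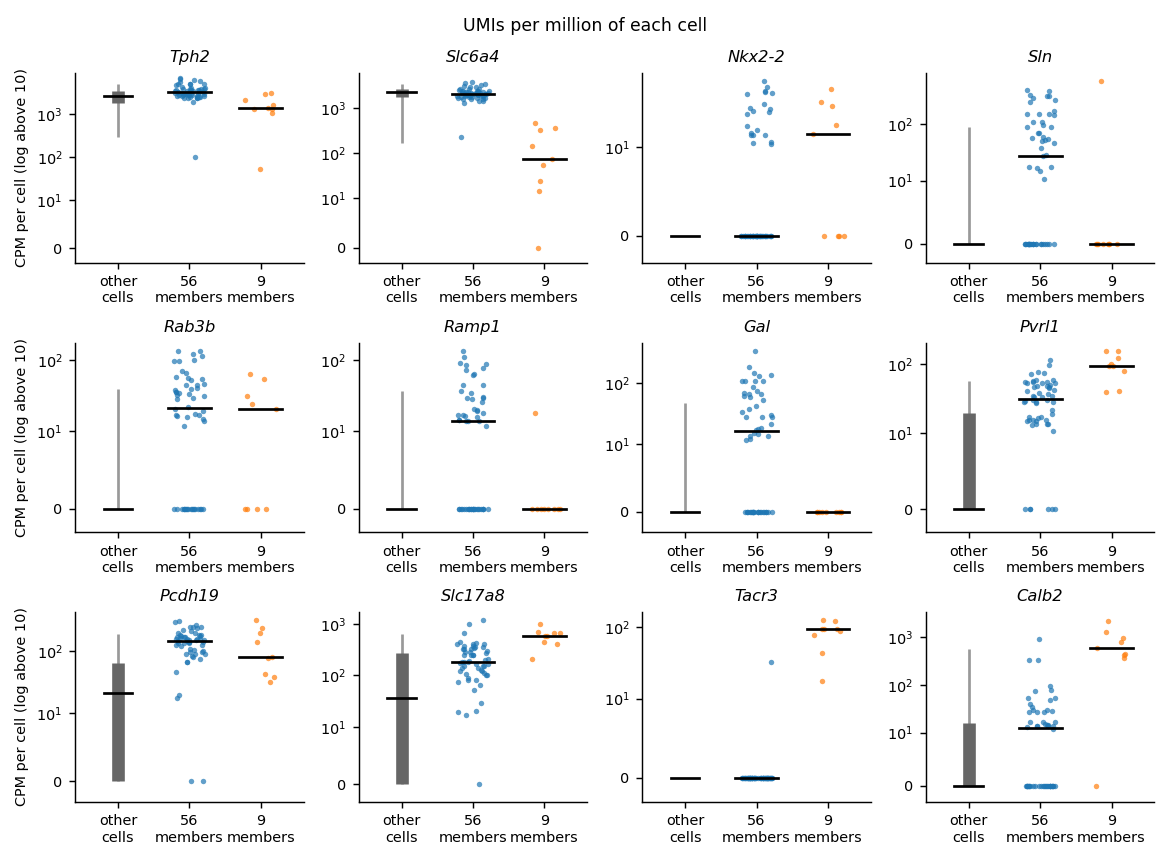
CPM of each cell (vertical axis, linear to 10 and logarithmic above) for 12 genes in the other cells (median, 25th to 75th percentile as the thick bar and 5th to 95th as the thin line), the 56 members and the 9 C1ql1-high members (1 point per cell, bar at the median). Pcdh19 is spread around medians well above that of the other cells in both kinds of member, whereas Gal and Ramp1 are largely at 0 in the 9 and Tacr3 at 0 in nearly all of the 56.

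The 20 genes were chosen for their level and detection in these cells, so that members hold more of them than other cells is fixed by the choice, and the numbers only describe the spread among members. A member had a median of 11 of the 20 (2 to 19) and another cell a median of 4 (0 to 16). After thinning each cell to 20000 UMIs the medians were 6.50 in 62 members and 2 in 2235 other cells. No member had all 20. When the 20 genes were chosen again without the 9 cells, 12 genes were shared by both lists, and genes such as Cited1 (427 and 138 CPM) and Sema5a (54.4 and 16.3 CPM) came in. Nkx2-2 left that list only because it had a UMI in 21 of the 56 cells, and its ratio there was 23.3.

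The genes lowest in the members were largely at or near 0 in them. Rspo3, an R-spondin that amplifies Wnt signalling, had 1 UMI in the 65 cells and 39.8 CPM in the other cells, a 155-fold difference with a counting interval of 27.7 to 6109.9. Pax5, a paired-box factor, and En2, a homeodomain factor, both of the midbrain-hindbrain border, were at 0.772 and 44.3 CPM and at 2.83 and 42.9 CPM, with En2 detected in 9 members (13.8%) and 1758 other cells (76.9%). Sst, somatostatin, had no UMI in the members, which allows a level at least 37.5-fold lower than the 28.9 CPM of the other cells, taking 3 counts over the group as the floor. Asb4, a substrate-binding subunit of ubiquitin ligases, was at 6.17 and 181 CPM, and Calcr, the calcitonin receptor, at 1.80 and 29.7 CPM. Rprm, a p53 target, was at 3.60 and 69.5 CPM, 19.3-fold lower (11.5 to 35.3). The 15 lowest also included Fam19a2, Gpc5, Tpbg, Nhsl1, Flrt2, Prmt8 and Sphkap, each 14.8-fold lower or more. Without the 9 cells all 15 genes were at least 13.7-fold lower, but the size of the difference depended on which cells were chosen. With Rorb left out of the score Sst was just under 2-fold lower, with Cmbl left out it was 2.06-fold lower, and with 100 cells in place of 65 Tpbg was 2.85-fold lower. Among the members 27 had no UMI of any of the 15, the median had 1 and the highest 12. The median of the other cells was 8, a contrast that the choice of the 15 fixes.

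Among the genes of fast transmission the GABA-synthesizing enzymes stood low. Gad1 was at 3.60 CPM in the members and 49.1 CPM in the other cells, and Gad2 at 10.5 and 116 CPM, 11.0-fold lower (8.13 to 15.4). Gad2 had a UMI in 6 members, and 1 of the 9 C1ql1-high cells alone was at 598 CPM. Without these 9 cells Gad2 was at 2.03 CPM. Slc17a8 was at 255 and 155 CPM (1.64-fold, 1.54 to 1.75), and it was detected in 64 of 65 members and 62.5% of the other cells. Of the 3 comparison sets, the Met Zeb2, Hs3st5 Hcrtr2 Cbln2 and Maf Nos1 Crh cells, each had more of it (296, 465 and 397 CPM) and little Gad1 (1.60, 4.80 and 2.25 CPM), with Gad2 at 8.68, 67.2 and 66.6 CPM. Nos1, neuronal nitric oxide synthase, was at 5.66 and 24.3 CPM. Of the 5 considered genes of the list 3 were lower and 0 higher, beside 0.11 and 0.06 at the shares of all genes.

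The neuropeptides went both ways, with 3 of 9 considered genes higher and 5 lower, beside 0.11 and 0.20 at the shares of all genes. Besides Gal and Ghrh the third was Adcyap1, the peptide PACAP, at 28.6 and 6.46 CPM, which was at 134 CPM in the 9 and 14.8 CPM in the 56 (2.30-fold). In barcode set 1 alone it was 1.38-fold higher. Besides Sst, the lower peptides included Pdyn, prodynorphin (5.92 and 50.1 CPM), Trh, thyrotropin-releasing hormone (0.514 and 15.0 CPM), and Nts, neurotensin (no UMI in the members, at least 16.6-fold lower), and Crh was at 1.54 and 9.97 CPM. These levels rested on few of the other cells, of which 3.37% had a UMI of Nts, 8.36% of Sst, 13.7% of Crh and 18.2% of Trh, so most of the other cells lacked these peptides too, and 65 cells at the share of Nts would hold few positive ones. Bdnf, a neurotrophin, was in the list of growth factors, at 1 UMI in the members and 12.3 CPM in the other cells. The peptide-amidating enzyme Pam was at 174 and 496 CPM.

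Receptors for peptides and transmitters lay on both sides. Oxtr, the oxytocin receptor, was at 15.4 and 6.02 CPM (2.56-fold) and Crhr2, a corticotropin-releasing hormone receptor, at 24.4 and 10.7 CPM (2.28-fold), and both held without the 9 cells (2.80 and 2.41). Tacr3, at 9.52 and 2.08 CPM, did not: in the 56 it was at 0.291 CPM, below the other cells. Of 24 considered G protein-coupled receptors 3 were higher and 3 lower in the 65 (0.30 and 0.52 at the shares of all genes), and 2 higher and 5 lower of 22 in the 56. The histamine autoreceptor Hrh3 was at 11.3 and 28.6 CPM and the muscarinic receptor Chrm2 at 4.63 and 11.5 CPM. Among serotonin receptors Htr5b was at 27.3 and 13.1 CPM (2.09-fold) and Htr1d, a release-inhibiting receptor of serotonin terminals, at 7.97 and 16.0 CPM. The GABA-A subunit gene Gabrq was at 52.2 and 19.6 CPM (2.67-fold), and the glycine receptor gene Glra1 at 9.00 and 32.6 CPM. The AMPA receptor subunit gene Gria3, at 10.8 CPM, was carried by 5 members, and it was at 91.8 CPM in the 9 and 0.291 CPM in the 56, beside 3.80 CPM in the other cells.

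Of 37 considered potassium channel genes 3 were higher and 2 lower in the 65, beside 0.46 and 0.81 at the shares of all genes, and 3 higher and 4 lower in the 56. Kcnq3, a subunit of the M-current channel that restrains repetitive firing, was at 164 and 77.9 CPM (2.11-fold) with a UMI in 63 members. Kcnj4, an inward rectifier, was at 10.8 and 3.55 CPM, and Kcng4, a modifying subunit, at 9.78 and 3.81 CPM. Both had no UMI in the 9 cells. Kcnd2, an A-type channel, was at 45.0 and 96.2 CPM. Over sodium, calcium, HCN, chloride and TRP channels 0 of 41 were higher and 2 lower (0.51 and 0.89 at those shares, and 0 and 4 in the 56). The 2 were Cacna1i, a T-type calcium channel (2.06 and 13.0 CPM), and Cacna2d3, a calcium channel accessory subunit (4.37 and 12.3 CPM).

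Of 21 considered nuclear receptors outside the rule 1 was at least 2-fold higher and 0 lower, beside 0.26 and 0.46 at the shares of all genes, with a median log2 ratio of 0.00. That gene was Nr2f1, COUP-TFI, the closest relative of Nr2f2, at 8.75 and 1.90 CPM, a ratio of 4.61 (3.12 to 6.61), with 23 members and 172 other cells positive. Of 16 considered genes of the Wnt pathway 0 were higher and 1, Rspo3, was lower (0.20 and 0.35 at those shares). Lists this small cannot be told from all genes by such counts. The glutamate uptake and recycling genes gave 0 higher of 12 and 1 lower (0.15 and 0.26), the branched-chain aminotransferase Bcat1, at 48.1 and 129 CPM. Atp1b2, a sodium pump subunit found in astrocytes and neurons, was at 84.1 and 27.7 CPM (3.04-fold) and was detected in all 65 members.

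Of 36 considered transcription factors of DR subtypes 4 were higher and 12 lower in the 65, beside 0.45 and 0.78 at the shares of all genes, and 2 higher and 14 lower in the 56. Cited1 was at 385 and 138 CPM (2.78-fold) and Tshz2, a zinc finger factor, at 54.8 and 20.4 CPM (2.69-fold). Cited2 was 2.18-fold higher in the 65 and 1.81-fold in the 56, and Pou3f1 2.91-fold higher in the 65 and 0.803 of the level of the other cells in the 56. Bcl11a, a zinc finger repressor, was at 1.03 and 19.6 CPM, and Sox14 at 0.772 and 11.8 CPM.

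Of 48 axon guidance genes 1 was higher, Sema5a at 48.1 and 16.3 CPM, and 5 were lower, beside 0.60 and 1.05 at the shares of all genes, among which lower genes were also the more numerous. In the 56 it was 1 and 8 of 46. They include the Slit receptor Robo1 (4.37 and 39.1 CPM) and the plexin Plxna4 (10.8 and 64.3 CPM). Of 25 cadherins and protocadherins 3 were higher and 4 lower (0.31 and 0.54 at those shares). With Pcdh19, its relatives Pcdh17 (260.1 and 126 CPM) and Pcdh8 (14.4 and 5.73 CPM) were higher, while Cdh13, a GPI-anchored cadherin, was at 43.5 and 286 CPM and Pcdh7 at 7.20 and 75.2 CPM. Of 72 synaptic adhesion genes and organizers 3 were higher and 12 lower (0.90 and 1.57), and in the 56 it was 1 and 14. Cbln2, a relative of C1ql1, was 2.02-fold higher in the 65 and 1.45-fold in the 56, at 392 CPM in the 9.

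Of 27 neurofilament, microtubule and growth-associated genes 24 were neither higher nor lower, 2 were higher and 1 was lower, beside 0.34 and 0.59 at the shares of all genes. The neurofilament genes Nefl (304 and 135 CPM) and Nefm (85.9 and 39.9 CPM) were 2.26-fold and 2.15-fold higher, and Prph, peripherin, another neuronal intermediate filament, was at 13.1 and 109 CPM, 8.35-fold lower. Igfbp5, an insulin-like growth factor binding protein, was at 125 and 47.9 CPM with a UMI in 61 members, and Fgf13 at 213 and 93.9 CPM with a UMI in 62. The copines Cpne9 (61.2 and 22.6 CPM) and Cpne4 (98.8 and 48.0 CPM) were higher, and Calb1, calbindin, was at 15.9 and 102 CPM. Of 30 calcium-binding genes 24 were neither, 4 were higher and 2 lower (0.38 and 0.65 at those shares). Egr1, the only lower one of 11 immediate early genes with 0 higher (0.24 and 0.14 at those shares), was at 6.17 and 16.7 CPM.

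**Figure D3:**
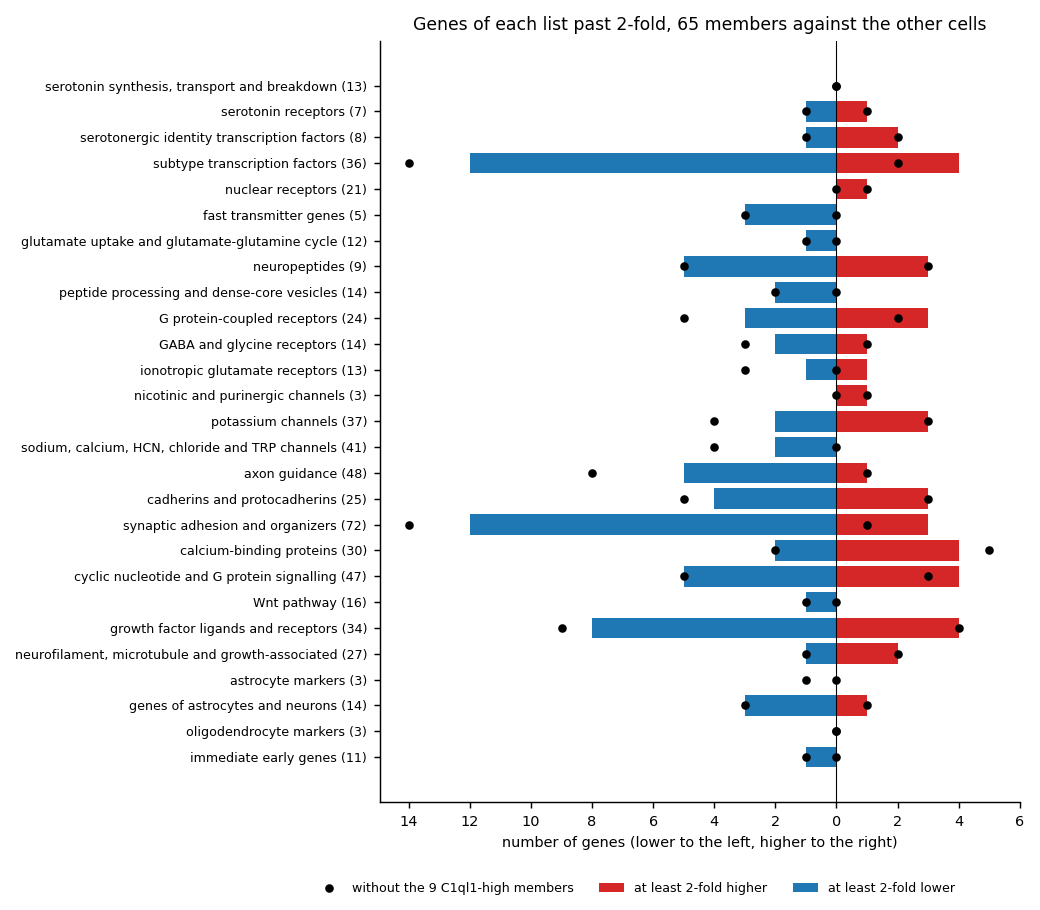
Number of genes (horizontal axis) of each functional list that were at least 2-fold higher (bars to the right) or lower (bars to the left) in the 65 members than in the other cells, with the number considered in brackets and the counts for the 56 members as points. The 13 serotonin synthesis, transport and breakdown genes have no bar, and the 36 subtype transcription factors have 12 genes to the left and 4 to the right.

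The members were set beside 3 other groups of the same 10X cells. These were the 93 Met Zeb2 cells (at least 3 Met UMIs), and the 65 cells each with the highest score for Hs3st5, Hcrtr2 and Cbln2, and for Maf, Nos1 and Crh. Against the Met Zeb2 cells 508 of 9861 genes (5.15%) were at least 2-fold higher in the members and 348 (3.53%) lower. Against the Hs3st5 Hcrtr2 Cbln2 cells it was 169 (1.72%) and 189 (1.92%) of 9836, and against the Maf Nos1 Crh cells 246 (2.50%) and 317 (3.22%) of 9856. The sets differ in size and were chosen on these values, so the counts are a description.

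Single genes showed which of these sets shared the members' pattern. Nkx2-2 was at 0.229 CPM in the Met Zeb2 cells, had no UMI in the Hs3st5 Hcrtr2 Cbln2 cells and was at 0.250 CPM in the Maf Nos1 Crh cells. Sln was at 0.457, 10.8 and 10.3 CPM in the same order, beside 78.5 CPM in the members. Gal was at 0.457, 9.61 and 15.5 CPM and Pcdh19 at 25.8, 61.2 and 34.8 CPM. Pvrl1 at 41.5 CPM in the Hs3st5 Hcrtr2 Cbln2 cells was close to the 43.0 CPM of the members, and Lima1 (20.1 CPM) and Gpr35 (15.5 CPM) in the Met Zeb2 cells were above the members' 17.0 and 13.6 CPM. Rspo3 was at 90.1 CPM in the Maf Nos1 Crh cells and 34.1 CPM in the Hs3st5 Hcrtr2 Cbln2 cells, but at 6.63 CPM in the Met Zeb2 cells. Asb4, Sst and Gpc5 were low in all 4 sets, at 9.01, 4.51 and 3.00 CPM or less.

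**Figure D4:**
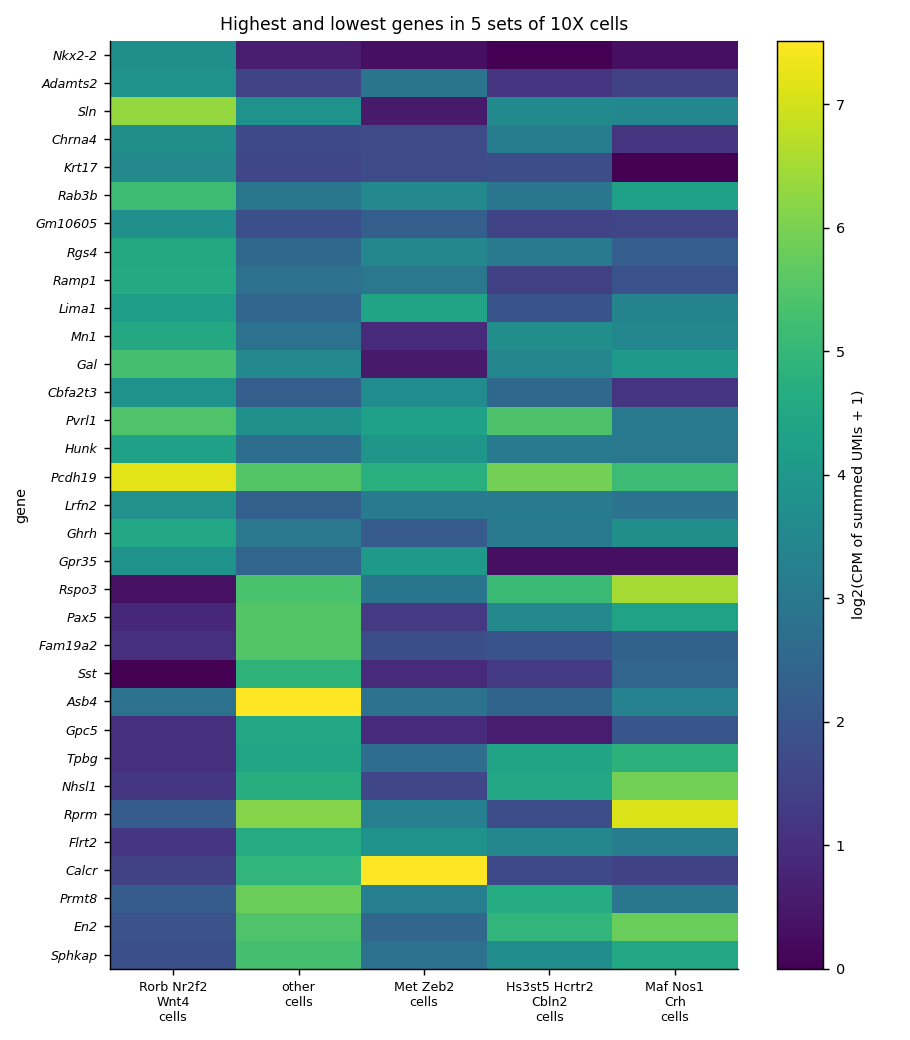
Log2 of the CPM of summed UMIs plus 1 (colour) for genes among the 20 highest and 15 lowest (rows) in the members, all other cells and 3 comparison sets (columns). Nkx2-2 and Sln are brightest in the members, while Rspo3 and Rprm are brightest in the Maf Nos1 Crh cells and Calcr in the Met Zeb2 cells.

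The nearest cells were also found without the 6 rule genes. Over 20 neighbours in 30 components, a mean of 44.6% of a member's neighbours were members, against 1.26% for the other cells. The cells that chose the members also gave this share, so it is a description. It ran from 0 in 3 members to 75%, and 29 members had at least 50%. Counting only the 56 it was 44.1%. The Met Zeb2 cells made up 0% of the members' neighbours, the Hs3st5 Hcrtr2 Cbln2 cells 2.15% and the Maf Nos1 Crh cells 0.0769%. Their shares of all cells were 3.96%, 2.77% and 2.77%. Cells that are no members made up 55.4% of the neighbours, nearly all from outside these 3 sets. The 3 sets are thus not the cells nearest to the members, and those nearest cells were not compared as a set.

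The manually sorted cells had no part in the choice of members, and the same genes could be followed there. The labels name no animals, so each group is 1 sample and no test was made. Age differed between the groups: the 6 Sert-cre cells of the caudal DR were all from postnatal day 63, the other Sert-cre cells from day 63 to 90, the P2ry1-cre cells from day 62 to 74, the Npy2r-cre cells from day 77 to 87 and the Crh-cre cells from day 83 to 119. Sert is the serotonin transporter Slc6a4, which drives this Cre. The mean z of the 6 rule genes was highest in the 6 Sert-cre cells of the caudal DR (cDR), at 0.72 to 2.14 with a median of 1.67. The 10 P2ry1-cre cDR cells were at -0.17 to 0.92 and the 10 Npy2r-cre cDR cells at -0.50 to 0.31. At the same age, the 15 Sert-cre cells of day 63 from outside the cDR were at -0.59 to 0.25, so that the ranges did not meet, whereas for the Npy2r-cre and Crh-cre groups, whose ages do not overlap day 63, age and group cannot be told apart. One cell in the rostral DR (rDR), of Npy2r-cre, was at 1.39. Every other cell of the 5 groups outside the cDR was at 0.34 or less. The Sert-cre cDR cells and the P2ry1-cre cDR cells overlapped, since the lowest of the former, at 0.72, lay below 0.92.

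Rorb was at 3.59 to 91.6 CPM of reads in the Sert-cre cDR cells, with a median of 47.6, and no other group had a median above 0.457. Cmbl and Wnt4 had reads in all 6 of these cells (medians 68.6 and 44.4 CPM) and a median of 0 in every other group. Nr2f2 had a median of 91.2 CPM there and 92.0 CPM (31.5 to 121) in the P2ry1-cre cDR cells, so this rule gene was shared. Yet 2 of the 6 Sert-cre cDR cells had almost none of it, at 0.897 and 0.228 CPM. C1ql1 was low, with a median of 2.53 CPM and a highest cell of 8.35 CPM, and in the P2ry1-cre cDR cells the highest was at 90.2 CPM. Met and Zeb2 had no reads in the 6 cells. Of the genes named above for the 9 C1ql1-high 10X cells, Tacr3 and Sema3e had no reads in the 6 cells. Col11a1 and Pou3f1 had reads in 2 of them, up to 33.3 and 8.07 CPM, Pou3f2 in 1, at 2.39 CPM, Calb2 in 5, up to 22.9 CPM, and Rgs4 in 3, up to 117 CPM. Slc6a4 was at 1945 CPM or more, but a sort by Sert-cre selects for it.

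Of the 20 highest genes 19 were in the manual table, and 16 of them had their highest group median in the Sert-cre cDR cells, as did 1778 of the 9746 considered genes found there (18.2%). By the mean of log2 of CPM plus 1 it was also 16 of 19, beside 19.8% of all. Of the 118 genes at least 2-fold higher in the 10X members, 58 (49.2%) had it there, and of the 213 lower genes 2 (0.939%). When the 20 genes were chosen without the 9 C1ql1-high cells, 12 of 19 did. Nkx2-2 had reads in 4 of the 6 cells (0 to 10.6 CPM) and in 2 of the 64 other cells. Sln was at 0 to 251 CPM with a median of 87.8, and its median was 0 in the 7 other groups. Ghrh had reads in all 6 cells, at 14.8 to 68.3 CPM, yet Npy2r-cre cDR cells reached 68.7 CPM. Pcdh19 had a median of 59.3 CPM in the Sert-cre cDR cells and 55.0 CPM in the Sert-cre vmDR (ventromedial) cells, medians that are close beside a range of 0 to 195 CPM. Hunk was higher in the P2ry1-cre cDR cells (47.2 CPM) than in the Sert-cre cDR cells (5.85 CPM), and Gpr35 had reads in 1 of the 6 cells.

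All 15 lowest genes had a median of 0 in the 6 Sert-cre cDR cells, where 7 had no reads, 5 had reads in 1 cell and 3 in 2 cells. A median of 0 there was also found for 966 of the 9746 considered genes and for 111 of the 213 lower genes. The P2ry1-cre cDR cells were close: a cell had reads of a median of 3 of the 15, beside 2 in the Sert-cre cDR cells and 5 to 11 in the other groups. Rspo3 and Pax5 had no reads in the 6 Sert-cre cDR cells, nor did Gad2, which is not among the 15, and 21, 34 and 35 of the 64 other cells had reads of them. En2 and Asb4 had reads in 1 of the 6, at 1.75 and 0.228 CPM. Tpbg went the other way in 2 of the 6 cells, with up to 226 CPM, and its mean of log2 of CPM plus 1, at 2.41, was below only those of the Sert-cre vmDR (4.54) and Npy2r-cre cDR cells (3.79). Nhsl1 reached 64.0 CPM, also with reads in 2 cells. Nefl was at 265 to 609 CPM there and had a median of 178 CPM in the Sert-cre vmDR cells, the next group. Nr2f1 had reads in 4 of the 6 and in 6 of the other 64 cells. Atp1b2, Igfbp5 and Fgf13 also had their highest medians in the Sert-cre cDR cells, at 39.7, 78.0 and 383 CPM. Cited1 did not, with 979 CPM beside 1358 CPM in the P2ry1-cre cDR cells. Gfap, a gene of astrocytes, had its highest median in the Sert-cre cDR cells as well, at 27.1 CPM with reads in 4 of the 6. Of other astrocyte genes, Ntsr2 had reads in 2 of the 6, up to 25.4 CPM, and Slc4a4 in 1, at 54.6 CPM. Gja1, Aldh1l1 and Slc1a3 had reads in 1 of the 6 each, at 1.20 CPM or less, and Gjb6 in none. A part of glial RNA in these levels was not tested.

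**Figure D5:**
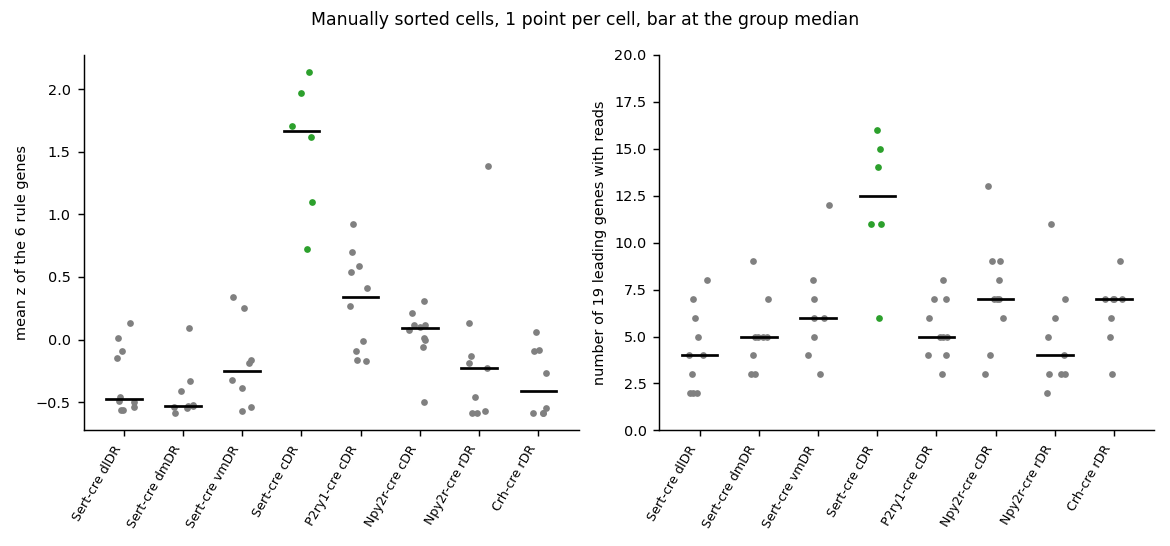
Mean z of the 6 rule genes (left) and number of the 19 leading genes with reads (right) in each manually sorted cell of 8 groups, with a bar at the group median. The 6 Sert-cre cDR cells have medians of 1.67 and 12.5 genes, and the other groups' medians reach 0.34 and 7.00 genes.

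The promoters of the leading genes were read because 2 rule genes encode nuclear receptors, whose common half-site is AGGTCA. The motif was searched on both strands from 250 bases before to 50 after the RefSeq start on GRCm38.p6. It was in 1 of the 13 of the 20 highest genes with a promoter in the table, in 18 of 93 of the genes at least 2-fold higher (19.4%), in 21 of 152 of those lower (13.8%), and in 14.1% of all considered genes. Nkx2-2, the gene with the highest ratio of the 20, has none in the window, and Ghrh has one in both of its windows, of which 1 is shown. The sequences run 5′ to 3′ on the minus strand, for Nkx2-2 at chr2:147186353-147186652 and for Ghrh at chr2:157346606-157346905, and capitals mark the motif, here as its reverse complement TGACCT.
Nkx2-2: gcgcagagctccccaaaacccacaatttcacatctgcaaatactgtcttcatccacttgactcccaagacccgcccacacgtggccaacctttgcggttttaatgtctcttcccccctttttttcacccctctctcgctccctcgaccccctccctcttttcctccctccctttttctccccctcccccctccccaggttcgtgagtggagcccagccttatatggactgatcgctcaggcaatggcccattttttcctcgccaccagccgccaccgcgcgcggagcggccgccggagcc
Ghrh: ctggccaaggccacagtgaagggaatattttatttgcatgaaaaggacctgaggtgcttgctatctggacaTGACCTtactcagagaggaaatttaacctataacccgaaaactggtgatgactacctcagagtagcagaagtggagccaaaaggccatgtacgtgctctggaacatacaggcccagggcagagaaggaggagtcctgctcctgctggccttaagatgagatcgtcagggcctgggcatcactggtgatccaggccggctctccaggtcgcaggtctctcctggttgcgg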

How the data were processed

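Pet1-lineage DR neurons of mice were profiled as pooled 10X cells (2350 cells) and as 70 manually sorted cells made into SMART-Seq v4 libraries. The authors deposited UMI counts per gene and cell for the 10X runs, after Cell Ranger processing and filters on cells by gene number, glial genes, Fev and mitochondrial share, and read counts per gene for the manual cells. The authors mapped and counted the manual cells with STAR on mm10, with no filter on cells. The submitters' processing notes name STAR 2.5.4, Cell Ranger 3.0.2, R 3.5.3 and mm10. Filters on Fev and on glial genes bear on what the members can show of either.

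Cells were scaled to 10000 UMIs, log-transformed and z-scored per gene for the rule. The members and gene lists were chosen with earlier results of these data known. Levels are CPM of summed counts, with exact Poisson intervals for levels, exact conditional intervals for ratios and exact Clopper-Pearson intervals for shares, and a floor of 3 counts where a group had none. Genes were considered at a mean of at least 5 CPM, and a ratio of 2 counted as a difference. Neighbours were the 20 nearest cells in 30 components of 2000 variable genes. The 10X cells had 12320 to 134079 UMIs and the manual cells had 756872 to 7664103 reads. No count model was used, since neither table names animals. Named genes were the 20 highest and 15 lowest under the conditions in the text, up to 4 per direction from each list, and every gene of the serotonin lists that was needed. The values of the 9 C1ql1-high cells and the genes named for them were chosen after the data were seen. Gene names were matched to RefSeq synonyms for 4 genes (such as Pvrl1, listed as Nectin1), and 2 of the named genes were not in the manual table. Some genes that these rules select are not reported here by name, and counts over all genes include them. On simulated Poisson counts of the summed groups with 200 changed genes, the intervals of the comparison of 65 with 2285 cells held the fold for 51 of 52 genes raised 2-fold, 51 of 54 raised 4-fold, 42 of 45 lowered 2-fold and 48 of 49 lowered 4-fold. The simulation had no variation between cells, so it checks the calculation only and not whether the intervals cover the spread of real cells. Python 3.11.15, SciPy 1.17.1, scikit-learn 1.9.0 and scanpy 1.11.5 were used.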

Additional observations from a re-analysis of the deposited data

Results flagged for a closer look

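In the manually sorted cells 38 sets of values, each over the 6 to 10 cells of 1 group, were screened for a cell far from the rest. The screen marks about 1 set in 20 by chance where values are normally spread. Sets with many zeros are not, so the number marked cannot be set beside that rate. Of the 38 sets 12 were marked. Most were genes that were near 0 in all but 1 cell. For the mean z of the 6 rule genes these were the highest Sert-cre dmDR cell (0.09), the lowest Npy2r-cre cDR cell (-0.50) and the highest Npy2r-cre rDR cell (1.39), which lies within the range of the Sert-cre cDR cells. In the 6 Sert-cre cDR cells, on the scale of log2 of CPM plus 1, the lowest cell stood apart for Mn1 (0.00) and Pcdh19 (0.00). The highest stood apart for Gpr35 (5.95), Sst (3.43), Prmt8 (2.07), En2 (1.46), Asb4 (0.30), Calcr (0.30) and Sphkap (0.30).

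The ratio of Pou3f1 in members to other cells was 0.689 in barcode set 1 and 3.94 in set 2, and that of Gria3 was 0.171 and 4.58. These differences were not tested. All 9 C1ql1-high members were in set 2.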

How the results depend on the processing

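The main limit is the mixture of members. Without the 9 C1ql1-high cells, an alternative chosen after the data were seen, the log2 ratios of Tacr3, Pou3f1 and Gria3 were -2.84, -0.32 and -3.71, opposite in sign to those of the 65 cells. In barcode set 1 alone, which holds none of the 9, Pou3f1 was at -0.54 and Gria3 at -2.55, and with C1ql1 left out of the score Gria3 was at -2.0. Under 18 alternatives, 1 of which took the mean of CPM per cell while the rest changed the cells or their depth, all 20 highest genes stayed at least 2-fold higher except 1 gene each in barcode set 1 alone (lowest ratio 1.60) and without the 9 cells (1.87), Rgs4 both times. Of the 15 lowest genes all stayed at least 2-fold lower, except Sst with Rorb left out of the score (just under 2-fold), and the smallest fold, 14.8 in the 65 cells, was 2.06 with Cmbl left out (Sst) and 2.85 with 100 cells (Tpbg). The wider counts held less well against only the 1093 other cells with at least 3 Slc17a8 UMIs. There 75 of the 124 higher and 132 of the 216 lower genes were again past 2-fold. The smallest of the 20 ratios was 2.04 there, and the smallest of the 15 folds lower was 6.19. The count of lower genes, 216, was 334 when the same cells were thinned to 20000 UMIs and 359 in barcode set 1 alone, where fewer UMIs were summed. The counts of higher and lower genes were 3236 and 838 with no filter on low values, 43 and 86 at a mean of at least 20 CPM, 349 and 509 at 1.5-fold, and 37 and 106 at 3-fold. The share of members' neighbours that were members, 44.6%, was 36.8% with 15 components, 54.5% with 10 neighbours and 48.2% with the 6 rule genes kept. No paired analysis was possible because the 10X cells carry no animal or replicate and no test was run. Depth limits the low genes: at a median of 63454 UMIs per cell, a gene at 12.3 CPM such as Nkx2-2 gives less than 1 UMI in a typical member.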

Other observations

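A small set of cells around the 9 C1ql1-high members reached beyond the rule. One cell that is no member had 9 of the 9 among its 20 nearest cells, with 50.7 CPM of C1ql1, 481 CPM of Col11a1, 1064 CPM of Calb2, 50.7 CPM of Tacr3 and 152 CPM of Slc6a4. Another, also with all 9 among its nearest cells, had no UMI of C1ql1, 278 CPM of Col11a1, 1669 CPM of Calb2, 50.6 CPM of Tacr3, 25.3 CPM of Slc6a4 and 25.3 CPM of Tph2. Both had no UMI of Rorb, and 253 and 177 CPM of Nr2f2. The only member outside the 9 with a UMI of Tacr3 (33.0 CPM) had 98.9 CPM of Tph2, 231 CPM of Slc6a4, 1154 CPM of Slc17a8 and no member among its 20 nearest cells. In the manually sorted cells Tacr3 had reads in 9 of the 10 P2ry1-cre cDR cells (median 18.4 CPM) and in no other cell, and Calb2 had a median of 591 CPM in the Npy2r-cre cDR cells, so no group there had medians of both near the levels of the 9 cells.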
